A study of Mus musculus with 16 samples.

Results

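The genes described here encode the cyclophilins Ppif and Ppid, the voltage-dependent anion channels Vdac1, Vdac2 and Vdac3, and the outer-membrane translocator protein Tspo. They were chosen as proteins linked to the mitochondrial permeability transition pore, and Ppif was chosen because its signal was far lower after HIF-1α knockdown. All 6 genes were matched by the symbol of the array feature, and their 8 features, 3 of them for Tspo and 1 for each other gene, were all among the 15086 of 25697 features that passed the filter on dim signal. Total RNA from cultured dorsal root ganglia, the ganglia that hold the cell bodies of sensory neurons, was hybridised to 16 Illumina Mouse Ref-8 v2.0 arrays. The ganglia were from mouse embryos of the strain CD-1, taken on embryonic day 13. Every culture received a lentivirus on day 4 in vitro, which carried control shRNA, shRNA against HIF-1α, or human HIF-1α in the vector FUGW. Cultures were collected uninjured on day 7, or their axons were cut with a blade on day 7 (axotomy) and they were collected 3 or 12 h later. There were 6 control, 6 knockdown and 4 overexpression arrays, with 2 arrays per construct and time except for 1 uninjured and 1 12 h overexpression array. The study asked which genes HIF-1α regulates in these neurons before and after axotomy.

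The permeability transition pore is a channel of the inner mitochondrial membrane that opens when calcium and oxidants are high, and its opening collapses the membrane potential. Ppif encodes cyclophilin D, the matrix protein that lowers the calcium load needed for opening, while Ppid encodes the cytosolic cyclophilin 40, an Hsp90 co-chaperone with a similar name. The VDACs carry ATP, ADP and other metabolites across the outer membrane, and Tspo binds cholesterol and sits beside them; both were once held to be parts of the pore and are now seen mainly as neighbours that can influence it.

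HIF-1 binds DNA at hypoxia response elements whose core is ACGTG or GCGTG. The promoters of both members with an entry in the set of RefSeq promoters used here are therefore shown. Each covers the 250 bases before an annotated start, with every match to either core on either strand in capitals. The windows are from build GRCm38.p6 and the plus strand, at chr14:25693920-25694169 for Ppif, chr11:52360601-52360850 for the first Vdac1 start and chr11:52361347-52361596 for the second.
Ppif promoter: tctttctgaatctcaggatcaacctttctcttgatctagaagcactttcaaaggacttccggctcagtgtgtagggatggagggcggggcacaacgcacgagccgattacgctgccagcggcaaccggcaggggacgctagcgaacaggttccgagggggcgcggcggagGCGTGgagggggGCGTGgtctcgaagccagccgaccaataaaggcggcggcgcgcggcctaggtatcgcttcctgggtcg
Vdac1 promoter 1: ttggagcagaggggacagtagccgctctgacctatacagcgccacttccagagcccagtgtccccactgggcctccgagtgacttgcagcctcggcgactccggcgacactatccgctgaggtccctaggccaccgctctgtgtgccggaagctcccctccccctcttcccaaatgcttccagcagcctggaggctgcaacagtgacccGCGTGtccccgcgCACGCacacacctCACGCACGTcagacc
Vdac1 promoter 2: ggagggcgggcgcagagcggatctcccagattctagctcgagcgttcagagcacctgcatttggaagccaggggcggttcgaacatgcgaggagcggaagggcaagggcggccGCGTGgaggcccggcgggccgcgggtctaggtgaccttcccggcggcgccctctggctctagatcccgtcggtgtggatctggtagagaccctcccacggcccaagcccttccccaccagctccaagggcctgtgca
The Ppif window held 2 matches to GCGTG, which begin 80 and 68 bases before the annotated start it was drawn for. This window lies within the annotated span of the Ppif gene, so that start is not the first base of the gene. The first Vdac1 window, by contrast, ends directly before the annotated Vdac1 gene. The first Vdac1 window held 4 matches, 3 to GCGTG and 1 to ACGTG, and the last 2 of these, both on the minus strand, overlap by 1 base. The second Vdac1 window held 1 match, to GCGTG, beginning 137 bases before its start. Of 32851 RefSeq promoter windows of the same length, 28.2% held GCGTG, 16.6% held ACGTG and 38.6% held either, so a match is common and does not by itself mark a binding site. Ppid, Vdac2, Vdac3 and Tspo had no entry in this promoter set, although all 6 genes are in the RefSeq annotation.

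The values are background-subtracted, normalised intensities in arbitrary units as the authors deposited them, on which 0 is the background level and a signal over 16 was taken as above background. Tests ran in 1 limma fit over all arrays and features on log2 values with an offset of 50, which shrinks differences of dim features, and calls were made where the p-value, after Benjamini-Hochberg adjustment over all features, was under 0.05. Constructs differed across much of the transcriptome: 27.9% of features were called higher and 28.9% lower in knockdown than in control, and 24.3% higher and 29% lower in overexpression than in control. A single call in a gene is therefore no sign that the gene stands apart, and sizes and per-array values carry more of the description. Arrays of the same construct correlated at 0.9907 to 0.9953 and arrays of different constructs at 0.9171 to 0.9528 over all features, so anything shared by the cultures or virus of one construct cannot be told apart from the construct. The overexpression cultures had no vector control of their own and were set against control shRNA. The labels do not say whether arrays of a group came from separate cultures, so the p-values measure the spread between arrays, which may be technical. The mouse Hif1a feature read 30.0 ± 7.96 (SD, n = 6) in control and was above background on 6 of 6 arrays, and it was above background on 0 of 6 knockdown and 0 of 4 overexpression arrays. Whether that feature detects the human transcript was not tested. The summed intensity of 8 sensory neuron markers was 58722 to 64195 in control, 43310 to 46440 in knockdown and 37541 to 42401 in overexpression, and its part in the results below was not tested. The markers did not move together: Isl1 was higher under both constructs (5755 to 6621 in knockdown and 5355 to 5859 in overexpression against 2971 to 3358 in control), Prph was lower under both, and Stmn2 was lower in overexpression (7309 to 9852 against 23125 to 29174) but not in knockdown (24660 to 29174). In RNA from whole cultures, fewer neurons and less RNA per neuron cannot be told apart.

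Ppif, the mitochondrial cyclophilin, had the widest span of the 5 brighter genes as a ratio of its highest to its lowest array. In control cultures its intensity ranged from 1888 to 2196 with a median of 2072 over 6 arrays. In knockdown cultures it was 179 and 155 without injury, 171 and 183 at 3 h, and 139 and 142 at 12 h. Every knockdown array thus lay more than 10-fold below every control array, and the lowest knockdown values were both 12 h arrays. In overexpression cultures it was 1097 without injury, 1089 and 965 at 3 h, and 1000 at 12 h, between the other constructs and overlapping neither.

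The mean intensity of Ppif was 2073 ± 111 (SD, n = 6) in control and 162 ± 18.9 (n = 6) in knockdown, a level of 7.79% of control, or 12.8-fold lower. On the fitted scale the difference was -3.23 on log2 (SE 0.0677), the second lowest of the 15086 features tested, after Pkia. This fall is the reason for which Ppif was chosen, so it is given as a description without a test. In overexpression the mean was 1038 ± 65.6 (n = 4), which is 50.1% of control. That difference, which was not used to choose the gene but rests on the same 6 control arrays, was -0.95 on log2 (SE 0.0782, adjusted p = 2.25e-09 by limma), which ranked 548 of 15086 from the lowest. The order of the levels was therefore control, overexpression, knockdown, and both HIF-1α knockdown and HIF-1α overexpression cultures held less Ppif signal than control. Between overexpression and knockdown the description is a difference of 2.28 on log2. A long non-coding RNA gene, Ppifos, overlaps Ppif in the RefSeq annotation, and the position of the array feature relative to it was not analysed here.

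**Figure D1:**
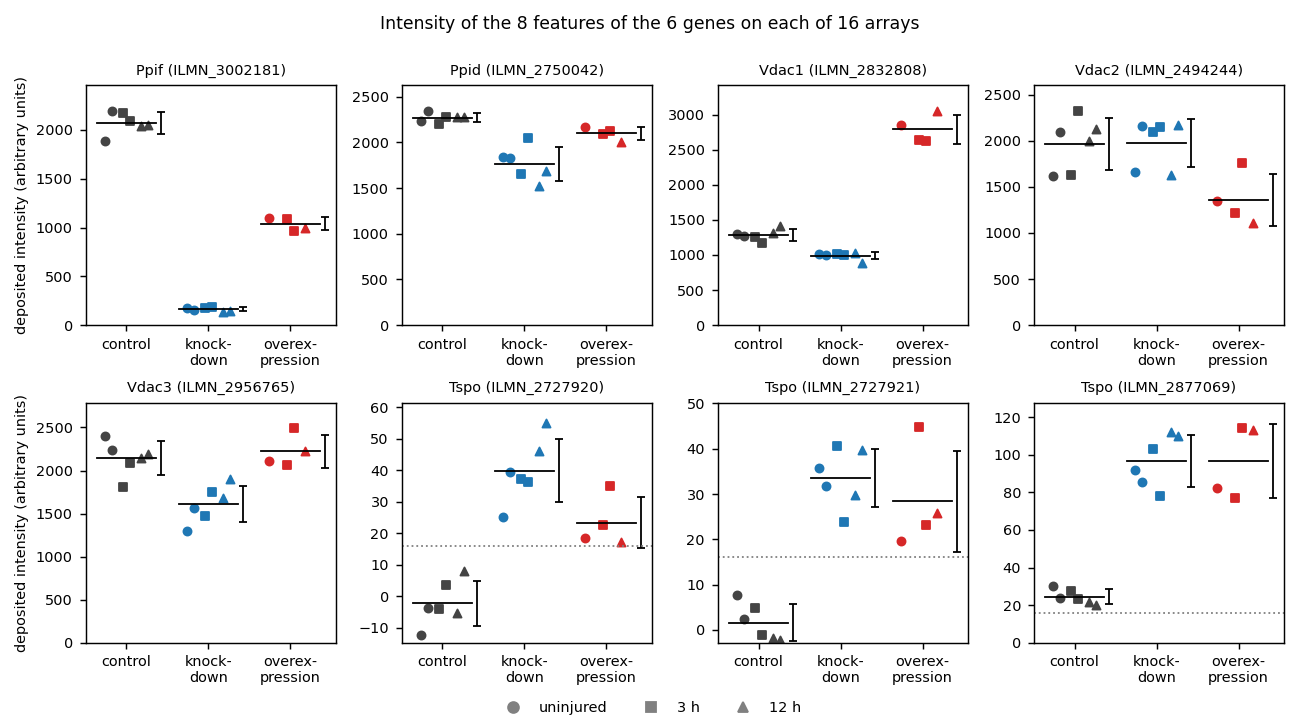
Deposited intensity in arbitrary units of each of the 8 features on 16 arrays, by construct; circles are uninjured, squares 3 h and triangles 12 h arrays, the line is the mean and the bar 1 SD over 6, 6 and 4 arrays, and the dotted line in the Tspo panels is the cutoff of 16. Ppif sits near 162 in knockdown against 2073 in control, and Vdac1 is the only feature over 1000 units that is higher in overexpression than in control on every array.

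Ppid, the cytosolic cyclophilin, moved much less than its mitochondrial relative. It ranged from 2204 to 2345 with a median of 2278 over 6 control arrays and from 1521 to 2048 with a median of 1763 over 6 knockdown arrays. In overexpression it was 2172, 2093, 2129 and 2009. All knockdown and all overexpression arrays were below all control arrays, which also holds for 18% and 21.1% of features in these respective comparisons, as it does for Ppif. Ppid was 77.8% of control in knockdown, with a log2 difference of -0.36 (SE 0.0687, adjusted p = 0.000155 by limma). In overexpression the difference was -0.11 (95% interval -0.28 to 0.05, adjusted p = 0.255) and did not pass the test. Within each array, log2 Ppif minus log2 Ppid, taken relative to its mean in control, was -0.96 to -0.77 on the 4 overexpression arrays against -0.11 to 0.11 on the 6 control arrays, so the cyclophilins changed unequally there. In knockdown it was -2.97 to -2.73, which follows from the choice of Ppif.

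Vdac1, the channel of the outer membrane that hexokinase binds, moved in opposite directions under knockdown and overexpression. It ranged from 1164 to 1414 with a median of 1286 in control and from 888 to 1021 with a median of 1010 in knockdown. In overexpression it was 2855 without injury, 2642 and 2618 at 3 h, and 3054 at 12 h. None of the 3 constructs overlapped another. Over all features, the knockdown arrays were all below control for 18%, and the overexpression arrays were all above control for 18.8%. The share in which all 3 constructs lie apart was not computed. The means were 1285 ± 81.3 (SD, n = 6) in control, 991 ± 50.9 (n = 6) in knockdown and 2793 ± 204 (n = 4) in overexpression, which is 77.1% and 217% of control. Vdac1 fell by 0.35 on the log2 scale in knockdown (SE 0.065, adjusted p = 9.15e-05 by limma) and rose by 1.11 in overexpression (SE 0.0751, adjusted p = 1.13e-10). It was the only one of the 5 genes other than Tspo to rise in overexpression, where its signal was 2.82-fold that in knockdown.

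Vdac2, which in mouse cells holds the apoptosis effector Bak1 in check at the outer membrane, fell in overexpression and not in knockdown. It ranged from 1620 to 2325 with a median of 2045 in control and from 1625 to 2173 with a median of 2122 in knockdown. In overexpression it was 1343 without injury, 1219 and 1755 at 3 h, and 1104 at 12 h. The ranges of control and knockdown nearly coincide, and 1 overexpression array reaches into both. In overexpression the mean was 68.9% of control and the log2 difference -0.57 (SE 0.125, adjusted p = 0.000679 by limma). In knockdown the difference was 0.01 (95% interval -0.21 to 0.24, adjusted p = 0.943). Replicate 2 was higher than replicate 1 in 7 of 7 groups with 2 arrays, a split seen after the values were examined, and 3 of the 4 overexpression arrays are replicate 1. Among replicate 1 arrays alone Vdac2 was 1620 to 1997 in control and 1104 to 1343 in overexpression (3 arrays each), and among replicate 2 arrays it was 2093 to 2325 in 3 control arrays against 1755 in 1 overexpression array. With the replicate number as a block the difference was -0.46 (adjusted p = 0.000233).

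**Figure D2:**
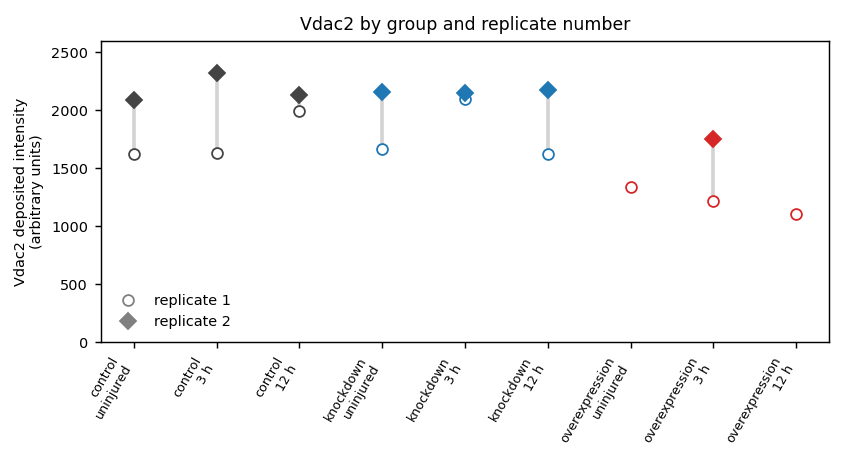
Vdac2 intensity in arbitrary units on each array, by construct and time; open circles are replicate 1 and filled diamonds replicate 2, and a grey line joins 2 arrays of a group. The diamond is above the circle in 7 of 7 groups, and each overexpression array is below every control array of the same replicate number.

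Vdac3, a VDAC whose deletion in mice is known to impair sperm motility, had the opposite pattern: it fell in knockdown and not in overexpression. It ranged from 1804 to 2406 with a median of 2169 in control and from 1296 to 1901 with a median of 1625 in knockdown. In overexpression it was 2110, 2064, 2490 and 2232. Control and knockdown overlap at 1 control array, of 1804 at 3 h, and 1 knockdown array, of 1901 at 12 h. Knockdown was 75.1% of control, a log2 difference of -0.40 (SE 0.0779, adjusted p = 0.000153 by limma). Overexpression differed from control by 0.04 (95% interval -0.15 to 0.23, adjusted p = 0.727).

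The 3 channels therefore had 3 different patterns over the constructs. Within each array and relative to control, log2 Vdac1 minus log2 Vdac2 was -0.38 to 0.27 in control, 1.14 to 1.99 in overexpression and -0.65 to -0.06 in knockdown. For log2 Vdac1 minus log2 Vdac3 it was -0.15 to 0.21 in control, 0.78 to 1.15 in overexpression and -0.34 to 0.37 in knockdown. The same measure for log2 Vdac3 minus log2 Vdac2 was -0.28 to 0.42 in control, 0.36 to 0.84 in overexpression and -0.62 to -0.08 in knockdown. Vdac1 was thus up against both others on all 4 overexpression arrays, without overlap with control, while the knockdown arrays overlapped control in all 3 measures. These differences of differences were not tested.

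Tspo, the dimmest of the 6 genes' signals, was higher under both constructs than in control on all 3 of its features. The brightest feature, ILMN_2877069, was 19.8 to 30.3 with a median of 23.5 over 6 control arrays and 77.9 to 112 with a median of 97.6 over 6 knockdown arrays. In overexpression it was 82.6, 77.3, 114 and 114. The lowest array of either construct was over 2-fold above the highest control array, and the means of both were 3.97-fold that of control. The other features, ILMN_2727920 and ILMN_2727921, were above background on 0 of 6 control arrays and on all 10 others. They thus passed the filter on dim signal only through the arrays where they were high, so their calls against control are no independent support. Set against the cutoff of 16, their mean in knockdown was at least 2.42-fold and at least 2.07-fold higher, and in overexpression at least 1.41-fold and at least 1.68-fold higher. For these 3 features the arrays of each construct were all above all control arrays, as they were for 18.2% of all features in knockdown and 18.8% in overexpression.

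On the fitted scale, where the offset shrinks such dim signals so that the values are no measure of fold, the 3 Tspo features ILMN_2727920, ILMN_2727921 and ILMN_2877069 rose by 0.73, 0.55 and 0.84 in knockdown (adjusted p = 5.98e-08, 1.92e-06 and 3.45e-09 by limma) and by 0.46, 0.44 and 0.84 in overexpression (adjusted p = 0.000171, 0.000179 and 3.95e-08). For ILMN_2727920 and ILMN_2727921 these p-values belong to features that passed the filter only through the arrays where they were high. With signals floored at 16 and no background model the 3 features were at 1.28, 1.05 and 1.99 in knockdown. In overexpression they were at 0.38, 0.66 and 1.99, and ILMN_2727920 no longer passed the test (adjusted p = 0.0659 by limma). Tspo is abundant in macrophages and glia in nervous tissue. The summed intensity of 6 macrophage markers was 79.8 to 136 in control, 107 to 163 in knockdown and 207 to 308 in overexpression, with Adgre1, Cx3cr1 and Itgam above background on no array. The sum of 5 Schwann cell and satellite glia markers was 288 to 578 in control, 455 to 681 in knockdown and 988 to 1908 in overexpression, with Fabp7 above background on no array. Most of it was Pmp22, with means of 374, 437 and 1353. Dhh was also higher under both constructs, while S100b was lower under both, with means of 49.4, 17.1 and 0.419. The sum of 6 fibroblast markers reached 99.8 in control and 32.5 in overexpression and was 335 to 476 in knockdown, and that of 5 endothelial markers was 10.9 to 60.5 in control, 39.4 to 72.5 in knockdown and 43.7 to 70.6 in overexpression. The part of these cells in the Tspo result was not tested.

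**Figure D3:**
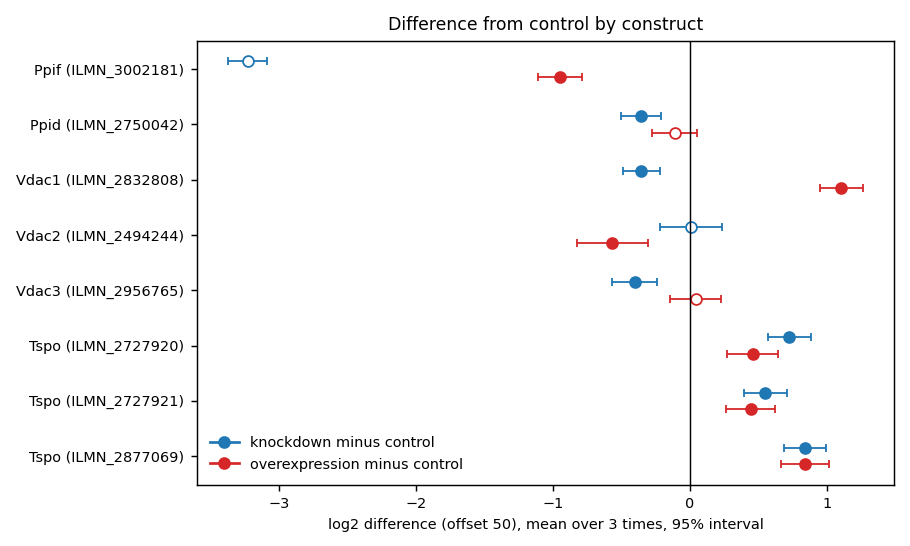
Log2 difference from control (offset 50), averaged over the 3 times, with its 95% interval, for the 8 features in knockdown (blue) and overexpression (red). Filled points passed an adjusted p of 0.05; open points did not or, for Ppif in knockdown, were not tested because the gene was chosen on that value of -3.23. Vdac1 lies on opposite sides of 0, and all 3 Tspo features lie to the right of 0 under both constructs. ILMN_2727920 and ILMN_2727921 passed the filter on dim signal only through arrays of these constructs.

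Ppif in knockdown is left out as described above. Of the other 7 features, 3 were called higher and 3 lower in knockdown, beside 27.9% and 28.9% of all features. In overexpression 4 of 8 were called higher and 2 lower, beside 24.3% and 29% of all features. The 3 Tspo features count singly among the higher ones, and ILMN_2727920 and ILMN_2727921 passed the filter only through arrays where they were high. The median log2 difference was 0.01 over the 7 features without Ppif in knockdown and 0.24 over all 8 in overexpression, beside -0.02 and -0.03 over all features. Directly between overexpression and knockdown, where 28.7% of features were called higher and 31.4% lower, Vdac1 (1.46), Vdac3 (0.45, adjusted p = 0.000223) and Ppid (0.25, adjusted p = 0.0114) were called higher in overexpression by limma. Vdac2 (-0.58, adjusted p = 0.000451) and the Tspo feature ILMN_2727920 (-0.27, adjusted p = 0.0123) were called lower. Without the single 12 h overexpression array, Ppid (0.21, adjusted p = 0.0631) and that Tspo feature (-0.16, adjusted p = 0.197) no longer passed. Without that array the comparison is a mean over the uninjured and 3 h times only. The comparisons between constructs share arrays, so each gene's values are to be read side by side and not as separate tests of one pattern.

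Taken at each time separately, a comparison rests on 3 or 4 arrays. In overexpression the sizes were steadier over the times for Ppif and Vdac1 than for the other channels. In knockdown Vdac1 was hardly steadier than Vdac2, which was at 0.04, 0.12 and -0.13 on log2. Ppif in overexpression was at -0.85 without injury, -1.01 at 3 h and -0.99 at 12 h on log2, and Vdac1 at 1.11, 1.08 and 1.13, each with an adjusted p of at most 9.8e-05 by limma. Vdac1 in knockdown was at -0.33, -0.25 (adjusted p = 0.0888) and -0.48, and did not pass at 3 h. Vdac2 in overexpression was at -0.44 (adjusted p = 0.158), -0.40 (adjusted p = 0.108) and -0.86 (adjusted p = 0.00636), so it passed only at 12 h, where overexpression has 1 array. Vdac3 in knockdown was at -0.68 (adjusted p = 0.000424) without injury, -0.26 (adjusted p = 0.129) at 3 h and -0.27 (adjusted p = 0.127) at 12 h. Tspo on its brightest feature was at 0.73, 0.77 and 1.02 in knockdown and 0.67, 0.81 and 1.04 in overexpression. In overexpression its dimmer features did not pass at every time: ILMN_2727920 was at 0.31 at 12 h (adjusted p = 0.153) and ILMN_2727921 at 0.27 without injury (adjusted p = 0.209). Ppid in knockdown was at -0.31 (adjusted p = 0.0504), -0.27 (adjusted p = 0.0735) and -0.49 (adjusted p = 0.00252), and passed only at 12 h. Differences between the times were not called for any of these, by the test of construct by injury that follows.

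Axotomy moved none of the 6 genes past the threshold. Averaged over the constructs, limma called 0 of the 8 features at 3 h, where 0.0199% of all features were called higher and 0.00663% lower, and 0 of 8 at 12 h, where 0.245% were called higher and 0.166% lower. At an unadjusted p under 0.05 it also found 0 of 8 at both times, against 1084 and 1698 of all 15086 features. The differences of the 8 features lay between -0.07 and 0.14 at 3 h and between -0.10 and 0.15 at 12 h on log2. For Ppif they were 0.01 (95% interval -0.14 to 0.16) and -0.10 (95% interval -0.26 to 0.07), so a change of the size seen between constructs lies outside these intervals. Within single constructs, 0 of 48 comparisons passed and 1 had an unadjusted p under 0.05, which was Vdac3 at 12 h in knockdown (0.31, 95% interval 0.03 to 0.59, adjusted p = 0.406 by limma). The test of whether the response to injury depended on the construct called 0 of 8 features, and 0% of all features, with 0 of 8 at an unadjusted p under 0.05 against 953 of all features.

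The features with a profile most like that of Ppif over the 16 arrays were found among 10093 that were above background on all control arrays, by the root mean square difference of log2 values, each taken relative to its own control mean. The nearest was Pkia, an inhibitor of protein kinase A, at 0.304, followed by a feature of Tmem14c, a mitochondrial protein of haem synthesis, at 0.333. Stard4, a sterol carrier, was at 0.362, a second Tmem14c feature at 0.376 and Gpc3, a cell surface proteoglycan, at 0.388, while the median over all features compared was 2.02. Pkia read 5695 ± 531 (SD, n = 6) in control, 415 ± 52.4 (n = 6) in knockdown and 2405 ± 282 (n = 4) in overexpression. Stard4 read 2419 ± 406, 292 ± 92.8 and 1368 ± 122. Gpc3 read 1049 ± 66.6, 94.5 ± 22.7 and 757 ± 94.8. All 5 were deeply lower in knockdown and less so in overexpression, which is the measure by which they were found, and no test was made.

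**Figure D4:**
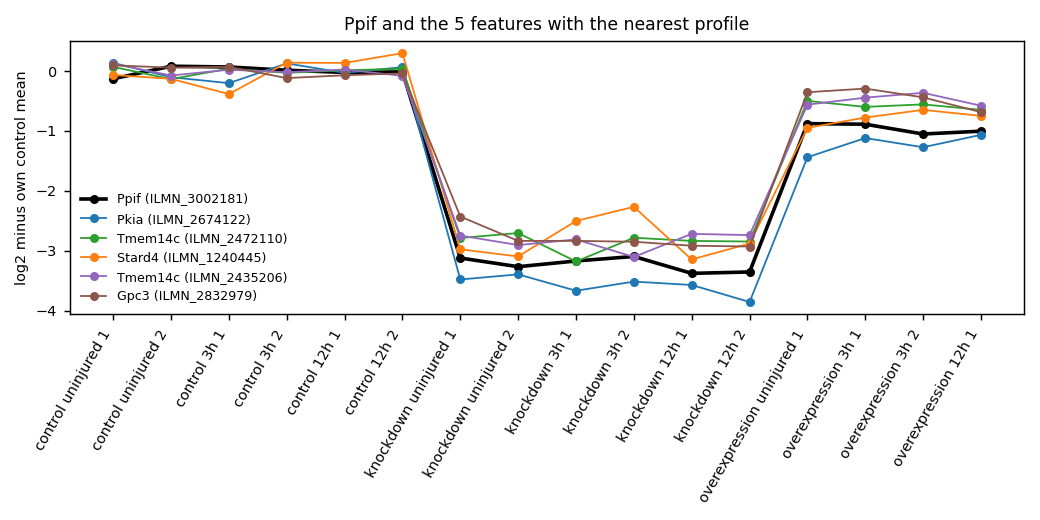
Log2 value of Ppif (black) and the 5 nearest features on each of 16 arrays, relative to each feature's own control mean; points are single arrays. All 6 profiles drop by over 2 in knockdown, and in overexpression Ppif lies between Pkia below and Gpc3 and Tmem14c above.

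A list of 60 other genes tied to the pore, its neighbours or the cyclophilins was examined next, of which 43 genes had a tested feature. Of their 58 features, 14 were called higher, 25 lower and 19 neither in knockdown, and 8 higher, 28 lower and 22 neither in overexpression. The 14 include the Ppic feature ILMN_2700797, which passed the filter on dim signal only through knockdown arrays. Over all features, 27.9% were called higher and 28.9% lower in knockdown, and 24.3% higher and 29% lower in overexpression. The counts of each list below are to be read beside these shares, and a count near them is no result about the list. Their median log2 difference was -0.12 and -0.21, beside -0.02 and -0.03 over all features, and injury moved 0 of 58 at 3 h and 0 of 58 at 12 h past the threshold. The 58 features ran from -1.78 to 1.75 in knockdown and from -1.49 to 0.92 in overexpression, where Vdac1 was at 1.11.

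Among the inner-membrane carriers, which bring ADP and phosphate into the matrix, 2 of 4 features were called lower in knockdown and 3 of 4 in overexpression, and none higher. Both lower features in knockdown belong to Slc25a3, the phosphate carrier, at -1.01 and -0.58. In overexpression its first feature was at -1.10, and Slc25a5, an ADP/ATP carrier, was at -0.56 with a mean intensity of 7161 ± 131 (SD, n = 4) against 10540 ± 607 (n = 6) in control.

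Of 11 features for ATP synthase, the enzyme whose dimers or c-ring have been proposed to form the pore itself, 3 were called higher and 5 lower in knockdown and 2 higher and 7 lower in overexpression. Atp5pb, the peripheral stalk subunit b, had the largest fall of them in knockdown, from 2803 ± 248 (SD, n = 6) to 767 ± 66.0 (n = 6), at -1.78 on log2 (adjusted p = 1.41e-14 by limma). Atp5o, the stalk subunit OSCP to which cyclophilin D binds, fell by 1.06 in knockdown and by 0.42 in overexpression. Atp5b, the catalytic beta subunit, fell by 0.55 in overexpression. Of the kinases that dock on VDACs, Ckmt1, a mitochondrial creatine kinase, rose by 0.50 in knockdown and fell by 0.27 in overexpression. Hk1, the hexokinase, fell by 0.47 in knockdown, and in overexpression its difference of 0.20 did not pass (adjusted p = 0.099).

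The apoptosis regulators of the outer membrane had 2 of 9 features higher and 3 lower in knockdown, and 1 higher and 2 lower in overexpression. All 3 lower in knockdown are features of Bcl2l1, which encodes the protective Bcl-xL, led by one that went from 127 ± 29.9 (SD, n = 6) to 32.3 ± 9.87 (n = 6), at -0.96 on log2. Bax, the pore-forming effector, rose under both constructs, from 816 ± 59.3 (n = 6) in control to 1531 ± 217 (n = 6) in knockdown and 1593 ± 119 (n = 4) in overexpression, at 0.85 and 0.92 on log2 (adjusted p = 8.88e-09 and 3.07e-08 by limma). Bcl2, which like Bcl-xL protects cells, rose by 0.48 on its feature ILMN_1249021 in knockdown (adjusted p = 3.73e-05 by limma), where Bcl2l1 fell, and fell by 0.47 in overexpression (adjusted p = 0.000275), while its feature ILMN_2682162, near background, was called in neither. Bid, which activates Bax, fell by 1.49 in overexpression on its bright feature ILMN_3161878, while its dim feature ILMN_2757287 lay near background in all 3 constructs, with means of 13.1 to 24.6.

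Genes of mitochondrial calcium entry and release had 1 of 9 features higher and 4 lower under each construct. Micu2, a gatekeeper of the calcium uniporter, fell on both of its features, by 0.93 and 1.03 in knockdown and by 0.53 and 0.55 in overexpression. Among 8 features of pore regulators, 1 was higher and 6 lower in knockdown, and 2 higher and 5 lower in overexpression. Cycs, cytochrome c, fell on feature ILMN_3076459 by 0.92 in knockdown and by 0.75 in overexpression, while its other feature, ILMN_3155380, differed by -0.15 in knockdown (adjusted p = 0.211). Afg3l2, a protease subunit of the inner membrane, fell by 0.51 in knockdown, and Trap1, a mitochondrial Hsp90 known to restrain cyclophilin D, fell by 0.66 in overexpression.

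Of 5 features for partners of Tspo, 1 was higher and 4 lower in knockdown and 4 were lower in overexpression. Dbi, which encodes a peptide ligand of Tspo, was lower on all 3 of its features under both constructs, with ILMN_3150159 at -0.43 in knockdown and -0.92 in overexpression, while Tspo itself was higher. Tspoap1, a Tspo-associated scaffold, read 366 ± 57.3 (SD, n = 6) in control, 789 ± 43.1 (n = 6) in knockdown and 209 ± 23.1 (n = 4) in overexpression, and so rose by 0.99 and fell by 0.64. Among 10 features of other cyclophilins, 5 were higher and 0 lower in knockdown, and 2 higher and 2 lower in overexpression. The Ppic feature ILMN_2700797, among those 5, reached 14.3 in control, 6.32 in overexpression and 38.8 in knockdown. It thus passed the filter on dim signal only through knockdown arrays, where it was high, so its call is no independent support. Ppic, cyclophilin C of the secretory pathway, read 29.5 to 45.5 on 6 control arrays and 221 to 338 on 6 knockdown arrays, at 1.75 on log2, on its feature ILMN_2810882, and it was above background on 0 of 4 overexpression arrays, at least 2.15-fold lower than in control against the cutoff of 16 (adjusted p = 6.68e-05 by limma). Ppil3, a spliceosomal cyclophilin, rose by 0.44 in knockdown and Ppie, another, by 0.36 in overexpression on its feature ILMN_2970685. None of the tested features of the cyclophilins other than Ppif and Ppid was called lower in knockdown, where 28.9% of all features were. That share is no fair measure for this list, because some of its features had control means under the cutoff of 16 and could hardly fall. These were ILMN_2700797 of Ppic (0.994), Ppih (6.05), Ranbp2 (12.1) and Nktr (15.8). Ppia was at -0.14 in knockdown and did not pass (adjusted p = 0.0735 by limma).

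**Figure D5:**
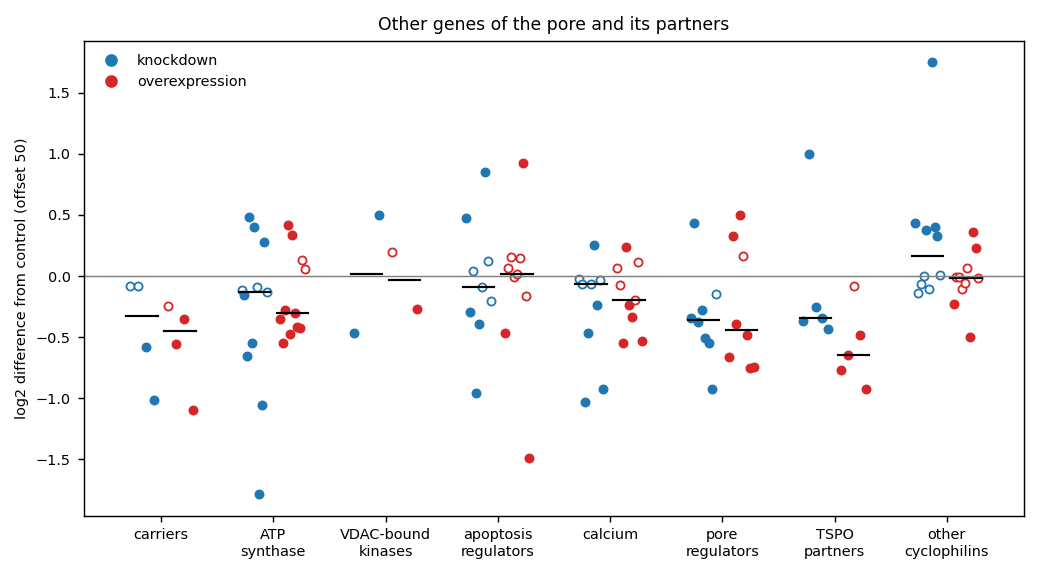
Log2 difference from control (offset 50) of the 58 tested features of the other genes, by list, in knockdown (blue) and overexpression (red); filled points passed an adjusted p of 0.05 and black lines are medians. Points of pore regulators and Tspo partners lie mostly below 0, and Ppic in knockdown, at 1.75, is the highest point.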

How the data were processed

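The authors' deposited table held 1 intensity per feature and array, already background-subtracted and normalised to a common distribution (values from -21.7 to 40785, 27.2% of them below 0, array medians 13.3 to 13.5); GenomeStudio is named per the submitters' processing notes, with no version. Symbols came from a second deposited file, whose 32 columns of signal and detection p match no sample label and were not used. Values were background-modelled by normexp with an offset of 50, quantile normalised and taken to log2. Features over 16 on at least 2 of 16 arrays (15086 features, 11151 genes) entered 1 fit in limma 3.58.1 (R 4.3.3) with 9 group means and 7 residual degrees of freedom (12.6 prior); the overexpression groups of 1 array were assumed to vary like the others. Constructs were compared as means over the 3 times, and p-values were adjusted by Benjamini-Hochberg over all features. The script was tested on simulated data.

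The 6 genes and the lists were chosen with earlier results of these data known. Named genes of the lists are the 2 features with the smallest p in knockdown and in overexpression of each list; Bcl2, Bcl2l1, Bid and Dbi features beyond these, the other Cycs feature, the neuron markers given singly and the split of Vdac2 by replicate number were added after values were seen. Alternatives covered the floor, pseudocount, offset, normalisation, filter, 1 feature per gene, the replicate number as a block, and each array left out. The number of arrays limits the precision. Of the listed glial markers, 5 are reported here. Array sequences and protein sequences were not used here.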

Additional observations from a re-analysis of the deposited data

Results flagged for a closer look

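One value of the 6 genes stood far from the rest of its group. Vdac1 on the knockdown array of replicate 2 at 12 h was 888, where the other 5 knockdown arrays read 1002 to 1021, and its gap to the nearest of them was 0.867 of the whole range. This was 1 of 24 such checks, of which chance marks about 5%. Without that array Vdac1 was still called lower in knockdown, as under every other single array left out, at -0.39 to -0.32 on log2.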

How the results depend on the processing

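The counts of the 6 genes' features called in knockdown (6, without Ppif) and in overexpression (6) were the same with each array left out. With 1 feature per gene, which leaves 1 for Tspo, the calls were 1 higher in knockdown, 2 higher in overexpression, and 1 lower in overexpression than in knockdown. Leaving out single arrays moved the calls between overexpression and knockdown to 3 to 5 in all and 1 to 2 lower. The low values came without the single 12 h overexpression array, which leaves a mean over the uninjured and 3 h times only. No other cause was tested. Ppif was at -3.69 and -3.44 in knockdown, and at 2.69 and 2.47 in overexpression against knockdown, with a floor at 16 and with an offset of 16, which shrink dim values less. Values that did not pass changed sign: Vdac2 in knockdown was -0.016 under cyclic loess and -0.072 to 0.094 with single arrays left out. Vdac3 in overexpression was -0.0022 to 0.13. Tspo ILMN_2877069 in overexpression against knockdown was -0.0018 with the floor, -0.00036 under cyclic loess, -0.0075 with the replicate block and -0.054 to 0.056 with arrays left out. Replicate numbers did not pair the arrays in a uniform way: the deviations of same-numbered arrays correlated at -0.158 to 0.298 (median 0.0393) over 21 pairs of groups, 6 of them over 0.1. Correlations of this size do not exclude a replicate effect between some groups. With the replicate block the fit called 4264 higher and 4404 lower in knockdown (4213 and 4360 without it), and it changed no call of the 6 genes. Calls after injury over all features were few and unsteady: at 3 h, 3 higher and 1 lower became 3 and 16 with the floor and 1 and 1 with an offset of 16, and at 12 h, 37 and 25 became 20 and 11 with the floor, 19 and 4 with 50 added in place of normexp, and 5 and 2 with an offset of 16. The interaction went from 0 to 50 calls with the floor. None of these was a feature of the 6 genes.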

Other observations

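The lean of Vdac2 towards replicate 2 was not common. Of 15086 features, 164 (1.09%) were higher in replicate 2 in 7 of 7 groups and 193 were higher in replicate 1, and 9 features had 7 of 7 with a median difference at least that of Vdac2 (0.36 on log2). The shares expected without any replicate effect were not computed. Among the other members Ppid and Vdac3 were each higher in replicate 2 in 6 of 7 groups, and Vdac1 in 1 of 7.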
